A study of Canis lupus familiaris with 13 samples.

Results

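Dendritic cell genes were followed through 13 tumor biopsies from 3 companion dogs treated with IMAX. The genes were chosen by name, from a list of 10 symbols covering pan-dendritic, type 1 dendritic cell and maturation genes: FLT3, ZBTB46, XCR1, CLEC9A, BATF3, CCR7, LAMP3, CD83, CCL19 and CCL22. Of these, 9 have a row among the 43427 symbols of the count table, and CLEC9A, a receptor of type 1 dendritic cells for dead cells, is not analysed here. All 9 passed the filter on low counts, as did 20118 symbols in all.

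IMAX is a nanoparticle complex injected into the tumor. It carries the cytotoxic drug paclitaxel and a cyclic dinucleotide, an agonist of the DNA-sensing adaptor STING, on a polymer conjugate. Dog RV had a soft tissue sarcoma, sampled before treatment (1 library), 2 days after the second dose (1 library) and 2 weeks after the third dose (2 libraries, at the injection site and at an adjacent site of the same mass). The paper's histology of the RV biopsy at 2 days gave granulomatous to pyogranulomatous dermatitis, without tumor cells identified for certain. For that time a change of tissue and a change within the tumor cannot be told apart. Dog CL had a cranial and a caudal mammary tumor, each with 1 library before treatment, 1 at 1 week and 1 at 1 month after the second dose. Dog BM had a mammary tumor with 1 library before treatment, 1 at 1 week and 1 at 3 weeks after the second dose. The paper's histology at 1 week found few neoplastic nests amid fibrous stroma in CL. In BM it found small neoplastic regions in a mineralized mass rich in collagen at 1 week, and carcinosarcoma features at 3 weeks. A change of tissue and a change within the tumor cannot be told apart in these biopsies either. The libraries were grouped as before treatment (4), early (4, at 2 days or 1 week) and late (5, at 2 weeks to 1 month). No library came from an untreated or vehicle-injected tumor, the labels give no age or breed, and biopsy times followed each dog's tumor size, so time since treatment and the course of the disease cannot be told apart. Apart from the late RV sites, each tumor had 1 library per time point, and the CL tumors share a dog, so p-values measure only the spread between these libraries.

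Dendritic cells take up antigen in tissue, mature on sensing danger, and carry the antigen to lymph nodes, where they activate T cells. The type 1 subset, which depends on the transcription factor BATF3, is known for presenting tumor antigens to CD8+ T cells, and STING agonists are known to activate it. Mature dendritic cells of every subset share a program with the homing receptor CCR7, the lysosomal protein LAMP3, the surface protein CD83 and chemokines such as CCL22.

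Total counts per library ranged from 11622444 to 29931125. At that depth 3 counts, the level taken as the limit of detection, corresponded to between 0.0833 and 0.262 CPM, where CPM is the count of a gene relative to the total of its library after TMM scaling, which evens out libraries dominated by a few genes. Levels of different genes are not compared, since CPM depends on gene length. The epithelial marker EPCAM lay between 11.5 and 460 CPM in the 9 mammary libraries and between 1.02 and 13.2 CPM in the 4 RV libraries. The mammary biopsies of CL caudal at 1 week (13 CPM) and BM at 3 weeks (11.5 CPM) were thus as low in EPCAM as the RV biopsy at 2 days.

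Early after treatment, XCR1, ZBTB46, CCR7 and LAMP3 were higher than before in each of the 4 tumors, which held for 10.8% of all genes tested. With library size as the only scaling, 3 of these remained, XCR1, ZBTB46 and LAMP3, against 12.4% of all genes. BATF3 was higher in 3 of the 4, by between 7.21-fold and 21.5-fold. None of the 9 genes passed edgeR's quasi-likelihood test over all genes with Benjamini-Hochberg adjustment (tumor and time group as factors), a test that called 0.00497% of all genes in this comparison. At an unadjusted p under 0.05 there were 3 (BATF3, XCR1 and ZBTB46, all higher), against 10.9% of all genes, or 7.7% in the higher direction. DESeq2 called 2 of the 9, BATF3 and ZBTB46, and 4.75% of all genes.

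**Figure D1:**
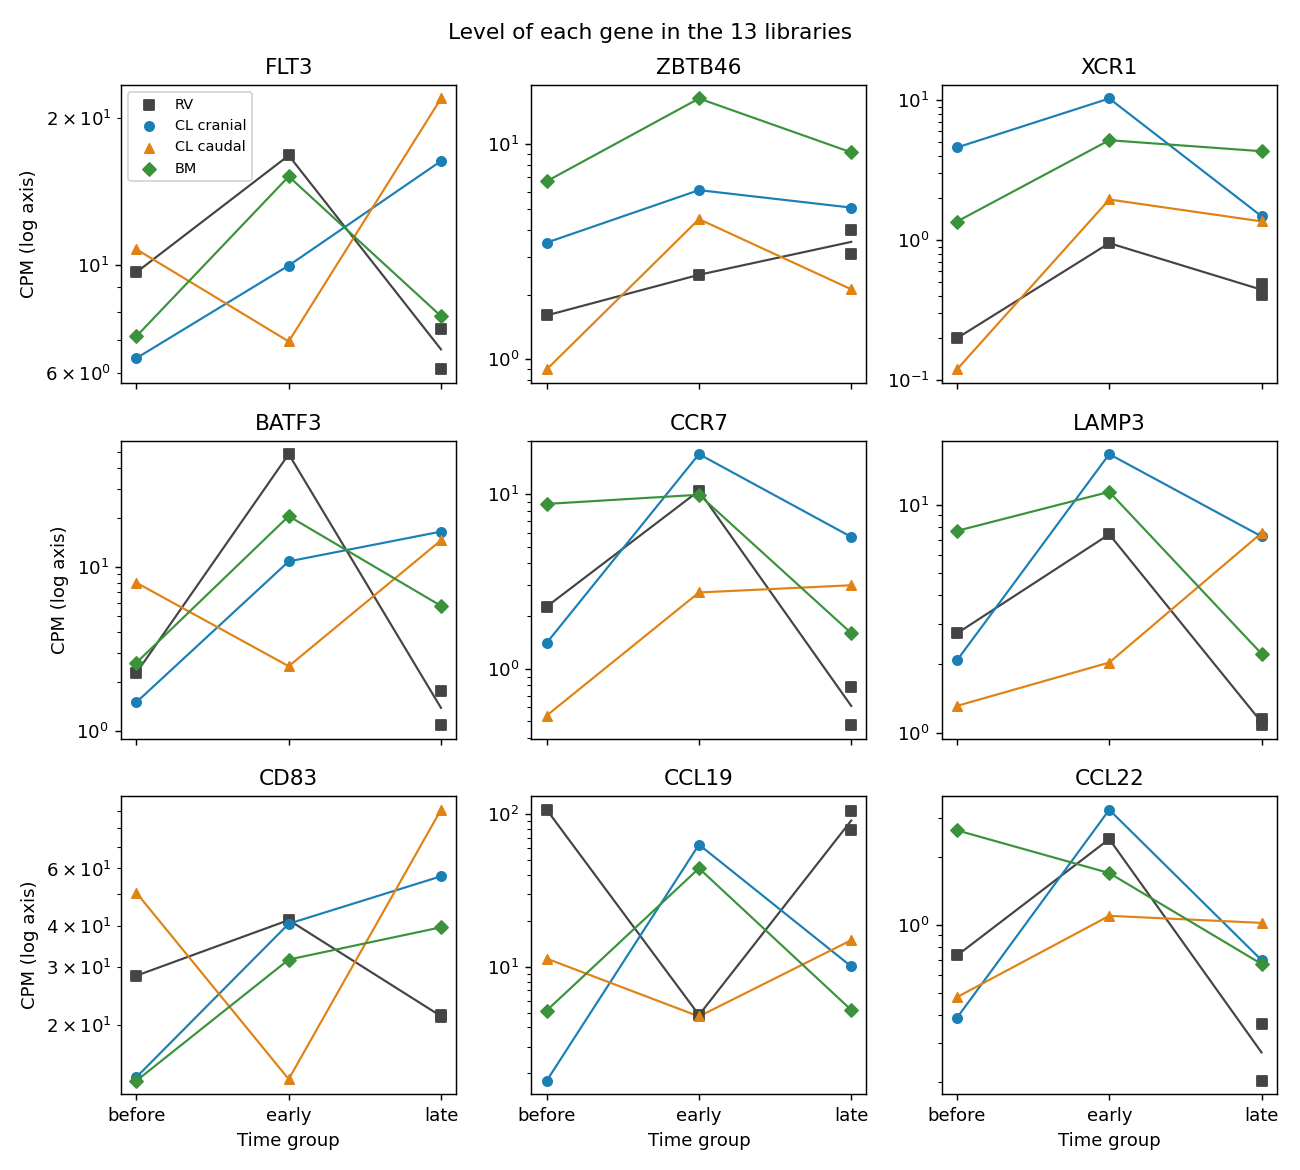
Level of each gene in CPM (log axis, a separate scale for each gene) before, early after and late after treatment. Each point is 1 library, the symbol marks the tumor, and lines join the libraries of a tumor through the geometric mean of the late RV sites. The lines of XCR1, ZBTB46, CCR7 and LAMP3 go up from before to early in all 4 tumors on this scale, and the RV line of CCL19 goes from 107 CPM to 4.83 CPM.

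FLT3 encodes the receptor for FLT3 ligand, the growth factor on which dendritic cell development depends (gene ID 486025, chromosome 25, 11653606 to 11730223 in the dog assembly UU_Cfam_GSD_1.0; all positions given here are gene spans of that annotation). Before treatment FLT3 stood at 9.66 CPM in RV, 6.44 in CL cranial and 10.8 in CL caudal, and 7.14 in BM. Early after treatment it stood at 16.8, 9.97, 6.97 and 15.2 CPM in the same order. Late libraries had 6.10 CPM at the RV injection site, 7.38 at the adjacent site, 16.3 in CL cranial and 22.0 in CL caudal, and 7.85 in BM. The groups overlapped at all times, and the range over all 13 libraries was 3.60-fold, the narrowest of the 9 genes. CL caudal went against the other tumors early, at 0.647 times its level before treatment (95% exact counting interval 0.522 to 0.802), while the other 3 tumors were between 1.55 and 2.13 times theirs. Its fitted log2 fold change early against before was 0.60 (SE 0.54, adjusted p = 0.655 by edgeR's quasi-likelihood test).

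ZBTB46, a transcription factor of conventional dendritic cells that is also made by endothelium (gene ID 485980, chromosome 24, 48124616 to 48175799), stood at 1.60 CPM in RV, 3.49 in CL cranial and 0.897 in CL caudal, and 6.72 in BM before treatment. It was at 2.47, 6.11, 4.48 and 16.3 CPM early, in the same order. Late ZBTB46 levels were 4 CPM at the RV injection site, 3.08 at the adjacent site, 5.07 in CL cranial and 2.11 in CL caudal, and 9.16 in BM. ZBTB46 was the only one of the 9 genes above its level before treatment in all 4 tumors at both later times, the late pattern holding for 7.13% of all genes. With library size as the only scaling it was not higher late in every tumor, a pattern then held by 4.41% of all genes. The changes early were 0.60 in RV, 0.79 in CL cranial and 2.20 in CL caudal, and 1.27 in BM on the log2 CPM scale. In RV the counting interval of the early ratio included 1 (1.54, 0.919 to 2.66). Early against before, ZBTB46 had a fitted log2 fold change of 1.28 (SE 0.52, adjusted p = 0.422 by edgeR's quasi-likelihood test), and DESeq2 gave an adjusted p of 0.0493. A second gene, LOC119877507, overlaps its span and had at most 6 counts in any library.

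XCR1, the receptor for the chemokine XCL1 and a defining gene of type 1 dendritic cells (gene ID 484792, chromosome 20, 42911915 to 42922678), was close to the limit of detection in 2 tumors. Before treatment XCR1 had 3 counts in RV (0.2 CPM), 95 in CL cranial (4.60 CPM), 2 in CL caudal (0.120 CPM) and 49 in BM (1.36 CPM). Early it had 17, 256, 48 and 146 counts, or 0.954, 10.3, 1.96 and 5.18 CPM. Late it stood at 0.407 CPM at the RV injection site, 0.484 at the adjacent site, 1.49 in CL cranial and 1.36 in CL caudal, and 4.33 in BM. All 4 tumors had more XCR1 early than before, as for 10.8% of all genes, and more early than late, as for 17.4%. Early against late the difference was smallest in BM (0.26 on the log2 CPM scale) and CL caudal (0.49), and no counting interval was computed for it. The CPM ratio early to before was 2.24 in CL cranial (1.76 to 2.86) and 3.81 in BM (2.74 to 5.38), but the wide intervals in CL caudal (16.3, from 4.28 to 139) and RV (4.77, from 1.38 to 25.4) rest on 2 and 3 counts before treatment. In CL cranial the late level was below the level before treatment, at 0.323 times it (0.181 to 0.545). XCR1 had a fitted log2 fold change early against before of 2.02 (SE 0.76, adjusted p = 0.384 by edgeR's quasi-likelihood test). DESeq2 gave an adjusted p of 0.0708.

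BATF3, the transcription factor that type 1 dendritic cells need and that activated T cells also make (gene ID 490283, chromosome 7, 10697314 to 10710068), had the largest fitted change of the 9 genes. Before treatment BATF3 was at 2.27 CPM in RV, 1.5 in CL cranial and 8.02 in CL caudal, and 2.61 in BM. Early it was at 48.7, 10.8, 2.49 and 20.4 CPM. Late BATF3 was at 1.76 CPM at the RV injection site, 1.09 at the adjacent site, 16.4 in CL cranial and 14.5 in CL caudal, and 5.80 in BM. The 2-day RV library stood above all others, at 21.5 times its level before treatment (15.3 to 31.3), and the 2-week RV sites were at 0.778 and 0.480 times that level. CL caudal went the other way, at 0.310 times its earlier level at 1 week (0.225 to 0.423) and 1.81 times at 1 month (1.45 to 2.27). For BATF3 the fitted log2 fold change early against before was 2.96 (SE 1.18, adjusted p = 0.414 by edgeR's quasi-likelihood test), and 1.17 (adjusted p = 0.714) without the 2-day RV library. DESeq2 on all libraries gave an adjusted p of 0.0421.

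CCR7, the receptor that takes mature dendritic cells and naive and central memory T cells to lymph nodes (gene ID 491011, chromosome 9, 22019550 to 22043479), was at 2.27 CPM in RV, 1.40 in CL cranial and 0.538 in CL caudal, and 8.78 in BM before treatment. Early CCR7 was at 10.4, 16.9, 2.73 and 9.91 CPM. Late it was at 0.475 CPM at the RV injection site, 0.786 at the adjacent site, 5.68 in CL cranial and 3 in CL caudal, and 1.60 in BM. The early ratio ran from 1.13 in BM, where its interval included 1 (0.957 to 1.33), to 12.1 in CL cranial (8.27 to 18.2). RV and BM were lower late than before treatment, with ratios of 0.210 and 0.347 at the RV sites and 0.182 in BM, whereas CL cranial (4.05) and CL caudal (5.58) stayed above their starting level. The fitted log2 fold change early against before was 1.82 (SE 0.93, adjusted p = 0.501 by edgeR's quasi-likelihood test).

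LAMP3, also called DC-LAMP, a lysosomal membrane protein of mature dendritic cells that is also found in lung epithelium (gene ID 607186, chromosome 34, 16262916 to 16298199), followed CCR7. Before treatment LAMP3 was at 2.73 CPM in RV, 2.08 in CL cranial and 1.32 in CL caudal, and 7.67 in BM. Early it was at 7.41, 16.6, 2.04 and 11.4 CPM. Late LAMP3 was at 1.09 CPM at the RV injection site, 1.15 at the adjacent site, 7.25 in CL cranial and 7.50 in CL caudal, and 2.23 in BM. Each tumor was higher early than before, from 1.48-fold in BM (1.26 to 1.75) to 7.98-fold in CL cranial (5.82 to 11.2), and in CL caudal the interval of the early ratio included 1 (1.55, 0.920 to 2.68). The late libraries divided as for CCR7, with ratios to before of 0.397 and 0.421 at the RV sites and 0.290 in BM against 3.48 in CL cranial and 5.70 in CL caudal. In the fit over all libraries LAMP3 had a log2 fold change of 1.39 early against before (SE 0.84, adjusted p = 0.542 by edgeR's quasi-likelihood test).

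CD83, a surface protein of mature dendritic cells that activated B and T cells also carry (gene ID 610141, chromosome 35, 14789321 to 14808126), was at 28.3 CPM in RV, 13.8 in CL cranial and 50.5 in CL caudal, and 13.5 in BM before treatment. Early CD83 was at 41.8, 40.7, 13.6 and 31.6 CPM. Late CD83 was at 21.1 CPM at the RV injection site, 21.4 at the adjacent site, 56.8 in CL cranial and 90.7 in CL caudal, and 39.7 in BM. Its course resembled that of FLT3 more than that of CCR7: the highest level was in CL caudal at 1 month, and CL caudal at 1 week was at 0.270 times its level before treatment (0.237 to 0.307). The 3 mammary tumors were higher late than before, by 1.79-fold in CL caudal, 2.94-fold in BM and 4.10-fold in CL cranial, and both late RV sites were lower (0.747 and 0.758). Fitted log2 fold changes of CD83 were 0.51 early (SE 0.59, adjusted p = 0.725) and 0.83 late (SE 0.55, adjusted p = 0.973), both by edgeR's quasi-likelihood test.

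CCL19, a ligand of CCR7 made by mature dendritic cells and by lymphoid stromal cells (gene ID 448793, chromosome 11, 51593870 to 51595370), had the most divided course. Before treatment CCL19 was at 107 CPM in RV, 1.79 in CL cranial and 11.3 in CL caudal, and 5.17 in BM. Early it was at 4.83, 63.2, 4.73 and 44.2 CPM. Late CCL19 was at 78.8 CPM at the RV injection site, 105 at the adjacent site, 10.05 in CL cranial and 14.9 in CL caudal, and 5.21 in BM. In CL cranial it was 35.3-fold higher at 1 week (25.5 to 50.3) and in BM 8.55-fold higher (7.33 to 10.03), while RV at 2 days was at 0.0451 times its level before treatment (0.0359 to 0.0561) and back to 0.737 and 0.981 times at 2 weeks. The fitted log2 fold change early against before was 1.70 (SE 1.36, adjusted p = 0.618 by edgeR's quasi-likelihood test). It was 2.61 (adjusted p = 0.391) without the 2-day RV library. A long noncoding RNA, LOC106559492, overlaps the span of CCL19 and had 22 to 129 counts per library, beside 37 to 1735 for CCL19.

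CCL22, a chemokine of mature dendritic cells and macrophages that attracts CCR4-bearing T cells, regulatory T cells among them (gene ID 100686212, chromosome 2, 58310530 to 58316323), had the fewest counts of the 9 genes, 369 over all libraries. Before treatment CCL22 was at 0.733 CPM in RV, 0.387 in CL cranial and 0.479 in CL caudal, and 2.64 in BM. Early it was at 2.41, 3.26, 1.10 and 1.70 CPM. Late CCL22 was at 0.203 CPM at the RV injection site (3 counts), 0.363 at the adjacent site, 0.699 in CL cranial and 1.02 in CL caudal, and 0.672 in BM. The early and late libraries did not overlap, the lowest early level being 1.10 CPM (27 counts) and the highest late level 1.02 CPM (15 counts), both in CL caudal; no other of the 9 genes was separated in this way, and 4.49% of all genes were. BM alone was lower early than before (0.646 times, 0.447 to 0.923). CCL22 had a fitted log2 fold change of 1.27 early against before (SE 0.84, adjusted p = 0.566) and 1.84 early against late (SE 0.77, adjusted p = 0.157), both by edgeR's quasi-likelihood test.

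Across the 9 genes, the fitted change early against before was above 0 for all 9, against 60.3% of all genes, with a median log2 fold change of 1.39 against 0.25 over all genes. Late against before it was above 0 for 7 of 9, against 46.9% of all genes, with a median of 0.46 against -0.05. The mean change of the median gene over the 4 tumors was 0.18 early with TMM scaling, and 0.38 with library size as the only scaling. The late values were 1.16 for BATF3, 1.09 for XCR1, 0.89 for ZBTB46, 0.83 for CD83, 0.46 for FLT3, 0.39 for CCL19, 0.22 for LAMP3, -0.20 for CCR7 and -0.57 for CCL22. None passed edgeR's quasi-likelihood test (smallest adjusted p = 0.973) or DESeq2, which called 0.0348% of all genes, and none had an unadjusted p under 0.05 in edgeR, against 4% of all genes. DESeq2 had an unadjusted p under 0.05 for ZBTB46 alone (0.036), against 8.35% of all genes. The test called 0% of all genes late against before.

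Early against late, CCL22 and CCR7 had an unadjusted p under 0.05 in edgeR's quasi-likelihood test. The values were 1.84 for CCL22, given above, and 2.02 for CCR7 (SE 0.88, adjusted p = 0.169), and 26.6% of all genes were under that p, 17.7% in the higher direction. None of the 9 passed over all genes, where the test called 0.00994%, and DESeq2, which called 23.9%, called CCR7 alone (adjusted p = 0.0497). Without the 2-day RV library the values were 1.42 for CCL22 and 1.46 for CCR7. XCR1 and CCL22 were higher early than late in all 4 tumors, as were 17.4% of all genes. With size factors by the RLE method this held for XCR1 alone, against 17.5% of all genes, and with library size only it held for XCR1, ZBTB46, CCR7 and CCL22, against 28%.

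**Figure D2:**
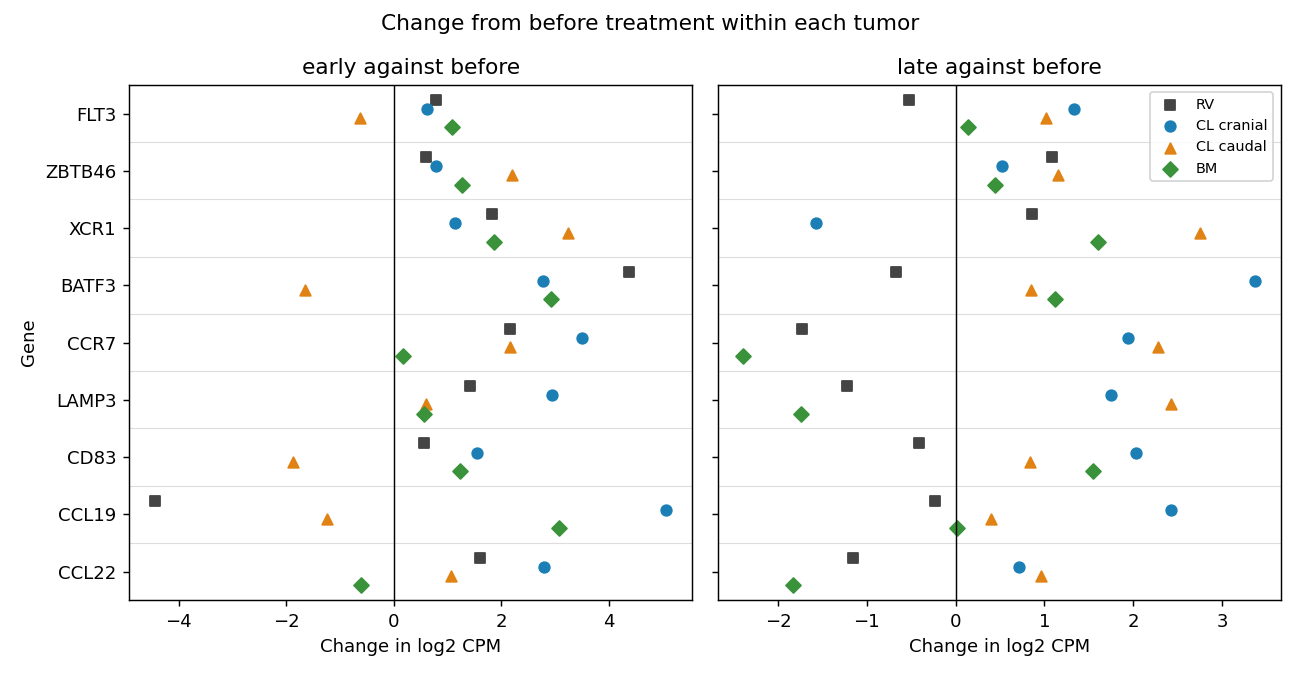
Change of each gene from before treatment within each tumor, in log2 CPM, early (left) and late (right). Each symbol is 1 tumor, with the late RV sites averaged, and the vertical line marks no change. XCR1, ZBTB46, CCR7 and LAMP3 lie wholly to the right of the line early, and ZBTB46 alone does so late, both with TMM scaling.

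The tumors differed in how many of the genes moved together. In CL cranial all 9 were higher at 1 week than before (median 2.77 on the log2 CPM scale) and 8 of 9 at 1 month (median 1.75). In BM 8 of 9 were higher at 1 week (median 1.22) and 6 of 9 at 3 weeks (median 0.14). In RV 8 of 9 were higher at 2 days (median 1.41) and 2 of 9, XCR1 and ZBTB46, at 2 weeks (median -0.52). CL caudal had the opposite order, with 5 of 9 higher at 1 week (median 0.59) and 9 of 9 at 1 month (median 1.02). The share of all genes that were higher lay between 46.6% and 54.5% in these comparisons. The late RV sites, the only place and time sampled more than once, differed by a median of 0.37 in absolute log2 CPM over the 9 genes, and by at most 0.65, for BATF3.

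Whether RV changed differently from the mammary tumors was tested with a separate time effect for RV, a model added after the values had been seen. None of the 9 genes passed edgeR's quasi-likelihood test for that difference, early or late, and the test called 0% of all genes in both. The lowest p was that of CCL19 early, with a difference of -7.26 (SE 2.06, adjusted p = 0.103), beside 24.4% of all genes under an unadjusted p of 0.05. For the other 8 genes p was at least 0.153 early, and late it was at least 0.106 for all 9, beside 2.71% of all genes under 0.05. Tumor type, dog and the earlier biopsy day of RV cannot be told apart in this comparison.

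Between tumors, with the time group held, edgeR's quasi-likelihood test called 7.91% of all genes and none of the 9. XCR1 (adjusted p = 0.0567) and ZBTB46 (adjusted p = 0.0721) had an unadjusted p under 0.05, as did 27.8% of all genes. DESeq2, which called 28% of all genes, called both, with adjusted p = 0.000357 for XCR1 and 3.92e-05 for ZBTB46. Without the 2-day RV library edgeR called 3, against 27.1% of all genes, with adjusted p = 0.0292 for XCR1, 0.0262 for ZBTB46 and 0.0165 for CCL19. XCR1 lay between 0.2 and 0.954 CPM in the 4 RV libraries, and between 1.36 and 10.3 CPM in 8 of the 9 mammary libraries. BM had the highest ZBTB46 level at each time. For the other 6 genes p was between 0.299 and 0.864 in all libraries and between 0.139 and 0.652 without the 2-day RV library.

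**Figure D3:**
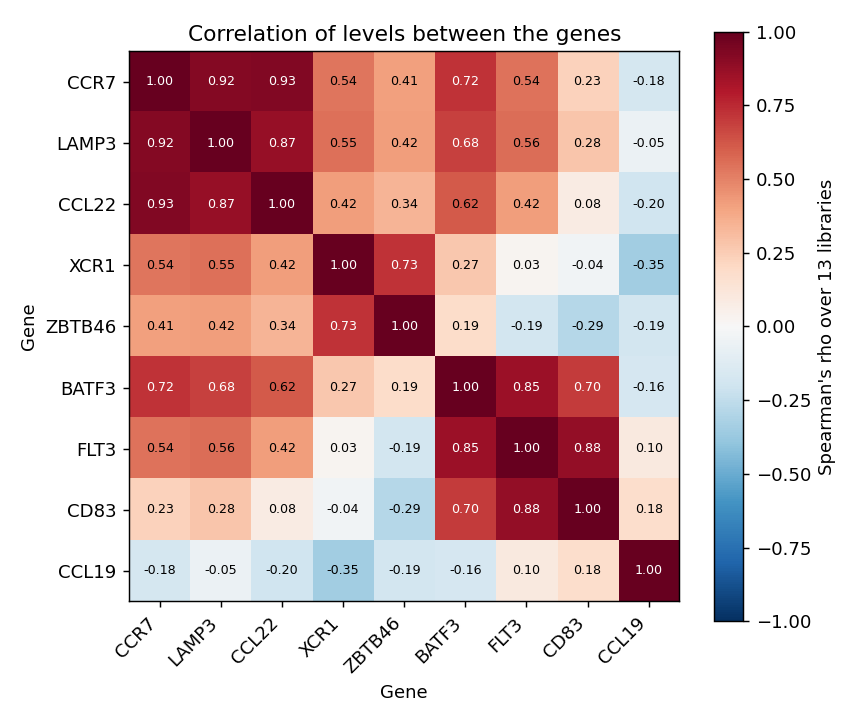
Spearman's rho between the log2 CPM of each pair of genes over the 13 libraries, as a color scale and as printed values. CCR7, LAMP3 and CCL22 form a block with rho from 0.87 to 0.93, FLT3, BATF3 and CD83 another from 0.70 to 0.88, and CCL19 has values between -0.35 and 0.18. The blocks are not separate, since BATF3 has rho from 0.62 to 0.72 with CCR7, LAMP3 and CCL22.

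Some of the 9 genes followed each other across libraries, without forming separate sets. Over the 36 pairs the median rho was 0.38, ranging from -0.35 to 0.93, with 27 above 0. These are descriptions over 13 libraries that share dogs, tumors and scaling, with no p. The maturation genes CCR7, LAMP3 and CCL22 were the closest, with rho of 0.92 for CCR7 with LAMP3, 0.93 for CCR7 with CCL22 and 0.87 for LAMP3 with CCL22. After the mean of each tumor was taken out, Pearson's r was 0.94, 0.96 and 0.87 for the same pairs. FLT3 followed CD83 (rho 0.88) and BATF3 (0.85), and XCR1 followed ZBTB46 (0.73). BATF3 had a rho of 0.70 with CD83, and of 0.72 with CCR7, 0.68 with LAMP3 and 0.62 with CCL22. XCR1 and BATF3, both genes of the type 1 subset, had a rho of 0.27, and XCR1 and FLT3 of 0.03. CCL19 did not follow its receptor CCR7 (rho -0.18).

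Ratios of counts within a library, which no scaling can alter, were taken for 4 pairs. LAMP3 to CCR7 ran from 0.71 in RV at 2 days to 2.50 in CL caudal at 1 month, with a median of 1.28. XCR1 to FLT3 ran from 0.0111 in CL caudal before treatment (2 counts of XCR1, 0.00134 to 0.0407) to 1.03 in CL cranial at 1 week (0.863 to 1.23). ZBTB46 to FLT3 ran from 0.0833 in CL caudal before treatment (0.0457 to 0.141) to 1.17 in BM at 3 weeks (0.954 to 1.42). CCR7 to CCL19 ran from 0.00602 at the RV injection site at 2 weeks (0.00242 to 0.0125) to 2.16 in RV at 2 days (1.67 to 2.83). The size of such a ratio depends on gene lengths, and only its spread between libraries is described.

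The genes outside the list with the most similar levels over the 13 libraries were CLEC2B and TRIM69 for FLT3 (rho 0.93 and 0.94), TYK2 and CD1D for XCR1 (both 0.93), PITPNC1 and LOC102154607 for BATF3 (both 0.95) and RHOB and C20H19orf25 for ZBTB46 (both 0.96). For the maturation genes they were MAP3K14 and S1PR4 for CCR7 (both 0.95), RAD21L1 and PYCARD for LAMP3 (0.92 and 0.91) and CD69 and B2M for CD83 (0.95 and 0.92). LOC111098966 and KLRB1 were closest to CCL19 (0.91 and 0.87), and RNF175 and TENT4A to CCL22 (0.92 and 0.91).

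The biopsies also differed in how much leukocyte RNA they held. PTPRC, which encodes the pan-leukocyte protein CD45, was at 45.5 CPM in RV, 53.4 in CL cranial and 87.1 in CL caudal, and 44.9 in BM before treatment. PTPRC was at 354, 304, 109 and 109 CPM early, in the same order. Late it was at 41.6 and 44.9 CPM at the RV sites, 151 in CL cranial and 167 in CL caudal, and 42.9 in BM. The fitted log2 fold change early against before was 1.95 (SE 0.55, adjusted p = 0.237 by edgeR's quasi-likelihood test). In bulk tissue, fewer cells of a type and less RNA per cell cannot be told apart.

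Relative to PTPRC in the same library, none of the 9 genes was higher early in all 4 tumors, against 0.507% of all genes. Of the 36 changes (9 genes in 4 tumors), 30 were above 0 on the CPM scale, with a median of 1.24, and 15 were above 0 relative to PTPRC, with a median of -0.76. PTPRC itself had a fitted early change of 1.95, against a median of 0.25 over all genes. A gene that rose less than PTPRC falls on this scale. The share above 0 and the median over all genes were not computed relative to PTPRC, so the values of the 9 genes have no background here. FLT3 (mean -1.30 ± 0.91 SD, n = 4 tumors) and CD83 (mean -1.40 ± 1.11 SD, n = 4) were lower relative to PTPRC in all 4 tumors early, as were 40.2% of all genes. FLT3 went from 212 to 47.4 counts per 1000 counts of PTPRC in RV, from 120 to 32.8 in CL cranial, from 124 to 63.7 in CL caudal and from 159 to 140 in BM. CCR7 was the only one of the 9 that was higher early than late relative to PTPRC in all 4 tumors (mean 0.75 ± 0.35 SD, n = 4), against 4.43% of all genes.

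**Figure D4:**
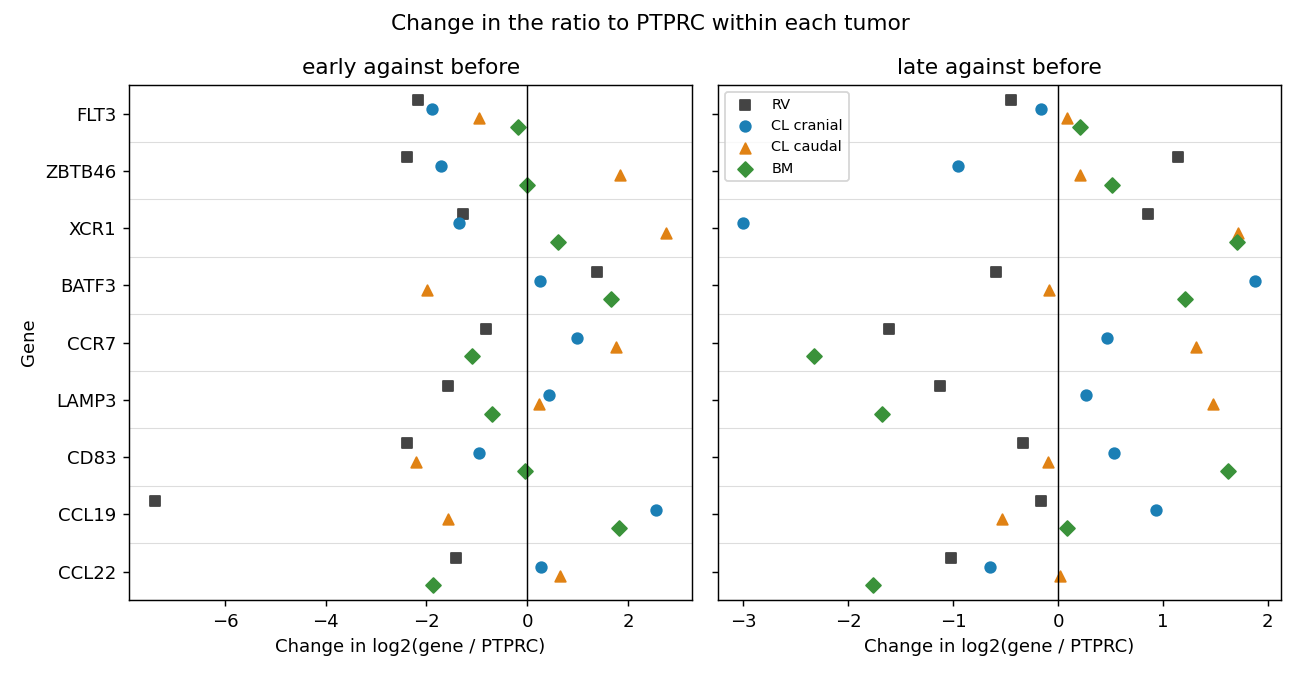
Change from before treatment in the log2 ratio of each gene to PTPRC within each tumor, early (left) and late (right), with symbols as for the tumors and the late RV sites averaged. FLT3 and CD83 lie to the left of the line in all 4 tumors early, and CCL19 spans from -7.39 in RV to 2.56 in CL cranial.

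Other gene lists were read beside the 9 genes. No gene of the 12 other lists passed edgeR's quasi-likelihood test early against before, where DESeq2 called 30 of their 91 genes against 4.75% of all genes. The following counts are of genes at an unadjusted p under 0.05 in edgeR and higher, which 7.7% of all genes were. Of 10 other type 1 dendritic cell genes, 4 were higher at that p, with a median log2 fold change of 1.35, among them CLNK (2.27, adjusted p = 0.315) and WDFY4 (2.03, adjusted p = 0.389), a gene needed for cross-presentation. The fitted change was below 0 for 2 of the 10, ITGAE (-0.64) and CADM1 (-0.13). Of 7 type 2 dendritic cell genes 4 were higher, with a median of 1.90, led by CD209 (5.63, SE 0.98, adjusted p = 0.117), a lectin of dendritic cells and macrophages. In this list 2 of the 7 had a fitted change below 0, CD1E (-0.57) and KLF4 (-0.22). CD1C, also on the list, reached at most 0.483 CPM in any library and was not tested, and CLEC10A has no row. Of 7 plasmacytoid dendritic cell genes 4 were higher, with a median of 1.18, led by IL3RA (2.78, adjusted p = 0.196), and 1 of the 7 had a fitted change below 0. TCF4, also on this list, had a median level of 144 CPM before and 85.7 CPM early.

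CD209 had the clearest levels of these. The 4 libraries before treatment lay between 3.80 and 14.1 CPM, the 4 early libraries between 51.6 and 758 CPM, and the 5 late libraries between 5.15 and 48.8 CPM. The early CD209 levels lay above all those before treatment, as for 2.71% of all genes, and above all late ones, as for 4.49%. CD209 was named for having the largest early change of its list.

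Of 13 other maturation genes 7 were higher at that p, with a median of 1.61, and 1 of the 13 had a fitted change below 0. EBI3, a subunit of the cytokine IL-27 (3.56, SE 0.88, adjusted p = 0.181), lay between 0.179 and 1.69 CPM before and between 2.36 and 11.5 CPM early. PDCD1LG2, the PD-1 ligand PD-L2 (2.98, SE 0.73, adjusted p = 0.169), lay between 4.31 and 12.4 CPM before and between 13.1 and 113 CPM early. All 4 early EBI3 levels and all 4 early PDCD1LG2 levels were above those before treatment, as were those of 2.71% of all genes. Both genes were named for having the largest early changes of their list, so this separation is not independent of that choice.

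A list of ligands and receptors had 6 genes tested, of which FLT3LG and CCL21 pair with one of the 9 genes, while CSF2RA, CSF2RB, CD40LG and CCL27 do not. Higher at that p were 4 of the 6, namely FLT3LG, CCL21, CSF2RA and CSF2RB. CCL27 had a fitted change below 0 (-1.30). FLT3LG, the ligand of FLT3, was named after its values were seen and had a fitted change of 1.29 (SE 0.51, adjusted p = 0.406) and stood at 2.67, 5.08, 1.73 and 10.8 CPM before and 4.83, 13.3, 7.78 and 15.7 CPM early in RV, CL cranial, CL caudal and BM. It was thus higher early in each of the 4 tumors, including CL caudal, where FLT3 was lower. CCL21, the other ligand of CCR7, stood at 0.133, 3.58, 0.957 and 44.8 CPM before and 23.2, 72.6, 0.326 and 982 CPM early in the same order, with a fitted change of 4.90 (SE 1.22, adjusted p = 0.182). The level in RV before treatment rests on 2 counts, under the limit of 3. Its direction in RV was opposite to that of CCL19.

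**Figure D5:**
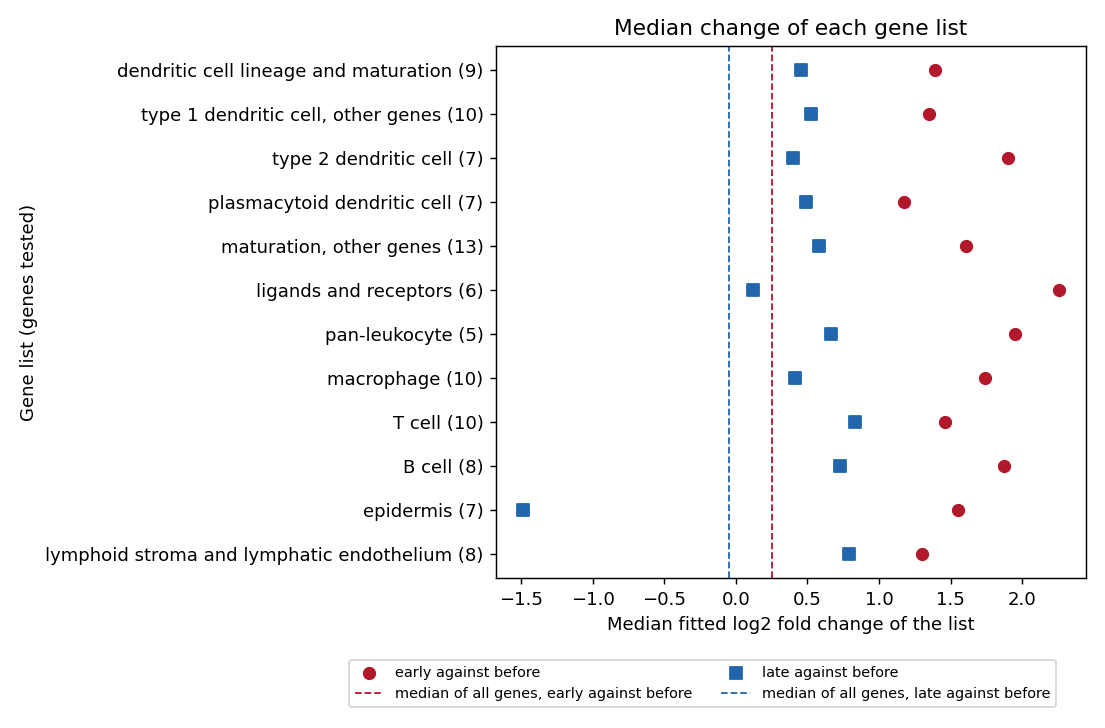
Median fitted log2 fold change of each gene list, early against before (circles) and late against before (squares), with the number of genes tested in parentheses and dashed lines at the median of all genes. The list of 9 dendritic cell genes sits at 1.39 early and 0.46 late, with 8 other lists above it early.

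Lists of other cell types were counted in the same way. Early against before, the genes higher at an unadjusted p under 0.05, against 7.7% of all genes, were 5 of 5 pan-leukocyte genes (median 1.95), 8 of 10 macrophage genes (1.74), 5 of 10 T cell genes (1.46), 3 of 8 B cell genes (1.87), 3 of 8 genes of lymphoid stroma and lymphatic endothelium (1.30) and 0 of 7 epidermis genes (1.55). The smallest adjusted p was that of CD163, a macrophage scavenger receptor (log2 fold change 2.84, SE 0.40, adjusted p = 0.0930). The summed level of the 10 macrophage genes was 287 to 738 CPM before, 931 to 3411 CPM early and 385 to 1345 CPM late, so the early libraries lay above all those before treatment. The same held for the sums of pan-leukocyte genes (246 to 394 CPM before, 625 to 2023 early) and type 2 dendritic cell genes (105 to 195, then 275 to 1178). It also held, narrowly, for other maturation genes (226 to 331, then 338 to 1094). It did not hold for the sum of the 9 genes (35.5 to 155 CPM before, 40.1 to 178 early). Nor did it hold for other type 1 dendritic cell genes (139 to 733, then 193 to 450) or plasmacytoid dendritic cell genes (96.0 to 374, then 143 to 245). No share over all genes was computed for such sums. The summed T cell level was 17.4 to 47.0 CPM before and 40.1 to 275 CPM early. CD207, the defining gene of Langerhans cells, had 0 counts in all 13 libraries and was not tested. EPCAM, the only gene of that list tested and used above as an epithelial marker, had a fitted change of -0.36. The part of these cells in the levels of the 9 genes was not tested.

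The 2-day RV library and the CL caudal libraries stood apart in ways that touch several of these values. The summed level of the epidermis genes in RV was 71.3 CPM before treatment, 2686 CPM at 2 days and 46.3 to 53.0 CPM at 2 weeks. In CL caudal it was 263 CPM before treatment, 2133 CPM at 1 week and 280 CPM at 1 month. CL cranial had 871, 1457 and 853 CPM at the same times, and BM had 3525 CPM before treatment, 1426 CPM at 1 week and 115 CPM at 3 weeks. Similar sums need not rest on the same genes of the list. Over the 4 early libraries KRT5 lay between 418 and 1938 CPM and KRT14 between 156 and 602 CPM. KRT1 had a median of 0.769 CPM there and a highest level of 427 CPM, and DSG1 had 2.77 and 211 CPM. By a measure chosen after the data were seen, genes in gene-dense regions, relative to those in gene-sparse regions, were at their lowest in RV at 2 days (-1.49 on the log2 scale, centered over libraries), followed by CL caudal before treatment (-1.15) and at 1 month (-0.85). CL caudal at 1 week was at 0.25, and the other 9 libraries were between -0.33 and 1.12. FLT3 and CD83, with 18 annotated genes within 500 kb, are at percentile 35.8 of that density, BATF3 and LAMP3 at 53.9, and the other 5 genes between 70.2 and 91.9. The part of this measure and of the epidermis genes in the levels of FLT3, CD83 and BATF3, which were low in CL caudal at 1 week, was not tested.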

How the data were processed

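RNA-seq was run by the authors on TRIzol-preserved tumor biopsies with strand-specific libraries. Strand NGS was used by the authors to align reads to CanFam4.0, and the values they deposited are raw read counts for each gene symbol, not normalized. The counting rule, its use of strand and the annotation release are not given in the sources used here, so reads shared by overlapping genes may be assigned either way. Libraries were grouped from their labels as before, early and late, and matched to tumors from their titles. Symbols were matched to the RefSeq annotation of UU_Cfam_GSD_1.0 (98.0% of the 43427). That table gives gene spans and no exon lengths or sequences, so levels per length, promoter motifs and sequences are not given.

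A filter (filterByExpr by time group, at least 10 counts) kept 20118 genes. In edgeR 4.0.16 under R 4.3.3, all 13 libraries were scaled by TMM and fitted by the robust quasi-likelihood method with tumor and time group as factors, which left 7 residual degrees of freedom at a common coefficient of biological variation of 0.672. Benjamini-Hochberg adjustment was applied to p-values over all genes, with a threshold of 0.05. DESeq2 1.42.0 was the alternative tool. The fit was tested on simulated data. The limits for passing applied only to a run with less spread between libraries than these data have. The share of changes recovered at the present spread is not given here. Changes within a tumor used log2 CPM with a prior count of 2, ratios to PTPRC added 2 counts to each gene, and intervals of ratios of counts are exact binomial intervals at 95%. Depth limits detection to about 3 counts per library. The intervals hold counting error alone, because reads carry no molecular identifier and are not independent molecules. No library copied another: over 78 pairs the smallest chi-square divided by its degrees of freedom was 44.5.

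Libraries of the same tumor come from the same animal and pair the time groups. Their deviations from the group means had a mean correlation of 0.23 between early and before, 0.59 between late and before and 0.19 between early and late, against -0.07, -0.20 and -0.07 for other tumors. The reported fit holds the tumor as a block, and the fit without it is an alternative.

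The genes, the 12 other lists and the tests were chosen with earlier results of these data known. Genes were named by rule: the 10 listed genes, the 2 genes closest to each by Spearman's rho, PTPRC, and up to 3 genes per list with the largest early change. The lists covered other type 1, type 2 and plasmacytoid dendritic cell genes, other maturation genes, ligands and receptors, and pan-leukocyte, macrophage, T cell, B cell, Langerhans cell, epidermis, and lymphoid stroma and lymphatic endothelium genes. Alternatives were size factors by the RLE method, library size only, a prior count of 0.5, no low-count filter, the dog in place of the tumor as block, no block, DESeq2, only the time points compared, late RV sites summed, CL tumors summed, each tumor left out, and the RV library at 2 days or the CL caudal library before treatment left out. A separate time effect for RV and the gene-density measure (window 500 kb) were added after seeing the data. Other computations used Python 3.11.15 with pandas 2.3.3, numpy 2.4.6, scipy 1.17.1 and matplotlib 3.10.9.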

Additional observations from a re-analysis of the deposited data

Results flagged for a closer look

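Late against before, 4 of the 9 genes were lower in RV and higher in each of the 3 mammary tumors, a pattern that 7.07% of all genes had. With size factors by the RLE method there were 3, without CCL19 (7.45% of all genes), with library size only there were 2, BATF3 and CD83 (4.39%), and relative to PTPRC there were 0 (0.651%). FLT3 changed by -0.52 in RV on the log2 CPM scale and by 0.14 to 1.33 in the mammary tumors. BATF3 changed by -0.67 against 0.85 to 3.37, CD83 by -0.41 against 0.84 to 2.03, and CCL19 by -0.23 against 0.011 to 2.43. In the model with a separate time effect for RV, the differences between RV and the mammary tumors were -1.43 (SE 0.97) for FLT3, -2.38 (SE 1.55) for BATF3, -1.78 (SE 1.005) for CD83 and -0.95 (SE 1.52) for CCL19, with adjusted p = 0.998 for each by edgeR's quasi-likelihood test. RV is 1 dog with another tumor type, sampled at 2 weeks after another dose, and these cannot be told apart. No library stood apart from its group by Dixon's criterion in any of 27 groups, where chance gives about 1.35.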

How the results depend on the processing

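The early fitted change of all 9 genes stayed above 0 under every alternative run except that of CCL19, which was -0.10 without the tumor block. Late, CCR7 reached 0.13 with late RV sites summed, 0.61 with a separate RV effect and -1.13 to 0.66 with a tumor left out. LAMP3 reached -0.47 with CL tumors summed, -0.28 without the CL caudal library before treatment and -0.65 to 1.05 with a tumor left out, and CCL22 ran from -1.12 to 0.041. Without the RV library at 2 days the early values were 1.14 for CCR7, 0.23 for FLT3 and 0.11 for CD83. Of the 9 genes, DESeq2 called 2 early and 2 between tumors, and 3 were called between tumors without the RV library at 2 days. Relative to PTPRC, 0 were higher early in every tumor, against 0.507% of all genes. Over all genes, 1 was called early, and 0 with RLE size factors, without the tumor block, with the dog as block, with only the time points compared, with late RV sites or CL tumors summed, with a tumor left out (0 to 0), or without the RV library at 2 days or the CL caudal library before treatment. It was 17 without the filter and 956 with DESeq2. Early against late, 2 were called, 0 under the same settings other than RLE size factors, 1081 without the filter and 4809 with DESeq2. Late against before, 0 were called, and 7 with DESeq2. Between tumors 1591 were called, 5633 with DESeq2, 473 with late RV sites summed, 352 to 1214 with a tumor left out, 5526 without the RV library at 2 days and 505 without the CL caudal library before treatment. The causes were not tested. The fits without the tumor block, with the dog as block, with CL tumors summed and with only the time points compared were not run between tumors. Depth limits XCR1 before treatment in RV (3 counts) and CL caudal (2), XCR1 late in RV (6 and 8) and CCL22 late in RV (3 and 6).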

Other observations

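Late against before, the 12 other lists had median log2 fold changes of 0.52 for other type 1 dendritic cell genes, 0.40 for type 2, 0.49 for plasmacytoid dendritic cell genes, 0.58 for other maturation genes and 0.12 for the ligands and receptors. The medians were 0.67 for pan-leukocyte, 0.41 for macrophage, 0.83 for T cell, 0.73 for B cell, and 0.79 for lymphoid stroma and lymphatic endothelium genes. The epidermis genes stood at -1.49 and EPCAM at -1.26. No gene of these lists passed edgeR's quasi-likelihood test or DESeq2 late, and 3 of their 91 genes had an unadjusted p under 0.05 in edgeR, against 4% of all genes.

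CSF2RB and CSF2RA, which encode the chains of the receptor for GM-CSF, a growth factor of dendritic cells and macrophages, had fitted early changes of 3.32 (SE 0.77, adjusted p = 0.157) and 2.63 (SE 0.80, adjusted p = 0.276) by edgeR's quasi-likelihood test. The 4 CSF2RB levels before treatment lay between 5.33 and 10.3 CPM, the 4 early levels between 17.2 and 148 CPM, and the 5 late levels between 2.90 and 19.3 CPM. The early CSF2RB levels were all above those before treatment, as for 2.71% of all genes, and overlapped with the highest late level. CSF2RB was named for its large early change.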
